A study of Mus musculus with 63 samples.

Results

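The 8 genes described here, Prox1, Dsp, C1ql2, Tdo2, Calb1, Rfx3, Plk5 and Pdzd2, mark the granule cells of the dentate gyrus (DG), and were taken by symbol from the 55291 gene symbols counted in each of 63 libraries. They were followed in mouse organotypic cultures that hold entorhinal cortex and hippocampus together, prepared at postnatal days 3 to 5 and kept at least 18 days in vitro. The DG or area CA3 was dissected from single cultures, which gave 39 regional libraries, either from unlesioned controls or 3 days after entorhinal cortex lesion (ECL), the cut that removes the perforant path input to the dentate granule cells. Regional groups came from wildtype C57BL/6J (Synpo+/+) cultures, with 4 DG control, 7 DG ECL, 2 CA3 control and 3 CA3 ECL libraries, and from synaptopodin-deficient B6.129-Synpotm1Mndl/Dllr (Synpo-/-) cultures, a line backcrossed to C57BL/6J, with 7, 4, 6 and 6. A second experiment of 24 libraries pooled 6 whole cultures per replicate. It compared the RNA pulled down with an antibody against synaptopodin (coIP) with the lysate it came from (input). It held 5 control and 5 ECL replicates of Synpo+/+ cultures and 2 Synpo-/- replicates whose lesion state is not in the labels. The paper used the Synpo-/- pull-down, from synaptopodin-deficient cultures, to correct for unspecific antibody binding. Animals of either sex were used, and the cultures hold neurons, glia and, in the DG, granule cells together with other cell types.

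Granule cells of the DG receive the perforant path from the entorhinal cortex and send mossy fibers to the pyramidal cells of CA3. Transcripts that mark them are more abundant in DG tissue than in CA3 tissue. Prox1 encodes a homeobox transcription factor that specifies and maintains granule cell identity, and Rfx3 encodes a winged-helix transcription factor. C1ql2 encodes a complement C1q-like protein that granule cells secrete at mossy fiber synapses, Calb1 encodes the calcium buffer calbindin, and Dsp encodes desmoplakin, a component of desmosomes. Tdo2 encodes tryptophan dioxygenase, an enzyme of tryptophan breakdown, Plk5 encodes a member of the polo-like kinase family, and Pdzd2 encodes a protein with several PDZ domains.

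On the mm10 build used for the counts, all 8 are protein-coding genes. Prox1 lies at chr1:190118035-190170714 on the minus strand, C1ql2 at chr1:120340582-120343174 on the plus strand, Tdo2 at chr3:81957090-81976202 on the minus strand and Calb1 at chr4:15881264-15908064 on the plus strand. Plk5 lies at chr10:80356459-80365489 on the plus strand, Dsp at chr13:38151294-38198577 on the plus strand, Pdzd2 at chr15:12359711-12739924 on the minus strand and Rfx3 at chr19:27761721-28011166 on the minus strand. Counting ignored strand, and 133 exonic bases of Prox1 (1.59%) are shared with the antisense gene Prox1os and 499 of Dsp (5.17%) with Gm10129, so reads from these stretches cannot be assigned to one partner.

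Since the 8 genes moved together between DG and CA3, their promoters were searched for the E-box (CANNTG, the same on both strands), the site bound by the NeuroD family of factors active in granule cells. RefSeq promoters on GRCm38.p6 were matched for 7 of the 8 genes, with 2 start sites for Prox1, which gave 8 windows of 250 bases before the start. An E-box was present in 3 of the 8 windows, against 66.2% of 32841 mouse promoters of this length. The 3 windows are shown 5′ to 3′ on the strand of the gene with the E-boxes in capitals, followed by the promoter of Dsp, a gene with one of the largest differences between DG and CA3, which holds none. They are Prox1 start site 1 (chr1:190170828-190171077, minus), C1ql2 (chr1:120340332-120340581, plus), Plk5 (chr10:80356209-80356458, plus) and Dsp (chr13:38151044-38151293, plus).
Prox1: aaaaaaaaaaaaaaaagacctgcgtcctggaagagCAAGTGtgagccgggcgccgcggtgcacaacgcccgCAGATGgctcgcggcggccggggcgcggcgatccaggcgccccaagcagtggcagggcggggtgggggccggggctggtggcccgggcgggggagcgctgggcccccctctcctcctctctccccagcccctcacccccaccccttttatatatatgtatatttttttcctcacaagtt
C1ql2: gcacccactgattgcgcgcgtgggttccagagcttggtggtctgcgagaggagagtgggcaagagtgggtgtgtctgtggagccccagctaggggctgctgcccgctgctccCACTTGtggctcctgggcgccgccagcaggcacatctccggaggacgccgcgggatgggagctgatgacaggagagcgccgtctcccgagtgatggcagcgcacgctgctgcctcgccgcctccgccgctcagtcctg
Plk5: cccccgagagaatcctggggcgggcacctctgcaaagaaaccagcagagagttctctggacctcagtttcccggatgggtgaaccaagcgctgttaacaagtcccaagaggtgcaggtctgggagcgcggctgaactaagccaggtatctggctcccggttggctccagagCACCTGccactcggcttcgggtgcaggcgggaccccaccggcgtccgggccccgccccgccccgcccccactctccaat
Dsp: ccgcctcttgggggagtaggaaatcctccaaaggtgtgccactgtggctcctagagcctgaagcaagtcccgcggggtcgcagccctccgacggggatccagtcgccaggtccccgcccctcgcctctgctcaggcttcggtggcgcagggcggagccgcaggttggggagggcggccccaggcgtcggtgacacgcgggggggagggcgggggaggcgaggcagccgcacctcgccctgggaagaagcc

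The Prox1 window held CAAGTG and CAGATG, the C1ql2 window CACTTG and the Plk5 window CACCTG. The TATA box, searched as TATAAA on both strands, was found in the Prox1 window of start site 1 and in that of Tdo2, and is present in 12.4% of all promoters. The 4 windows shown had GC contents of 64.8%, 68.8%, 65.6% and 72.4% in the order given, and that of Tdo2 was lowest of the 8, at 46.4%. No motif of those searched was common to all windows, and a match is a description of these letters only.

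Library totals ranged from 14055930 to 46043990 counted reads in the regional experiment and from 11601154 to 53682143 in the coIP experiment, and no pair of libraries of one group held identical counts (0 of 130 pairs). Synpo, the gene targeted in Synpo-/- cultures, was not lower in them: in control DG its level was 51.8 ± 9.32 CPM (normalised read count relative to the library total after TMM scaling, SD, n = 7) against 22.5 ± 2.36 (n = 4) in Synpo+/+, so the counts do not check the genotype and it is given as labelled. CA3 pyramidal markers went with the labelled tissue in all but 1 regional library, with sums of 323 to 574 CPM in the other DG libraries and 893 to 1287 CPM in CA3. The library labelled Synpo+/+ DG ECL replicate 5 and the library labelled Synpo-/- CA3 control replicate 1 stood apart, and comparisons between groups that hold either are given with and without it. Cultures are named as separate samples without litter or animal, so p-values measure the spread between these samples, and in tissue of mixed cells fewer granule cells and less RNA per granule cell cannot be told apart.

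The dentate content of each regional library was read from all 8 genes at once. For each gene, the median of the 17 CA3 libraries was set to 0% and the median of the 22 DG libraries to 100%, and the median over the 8 genes gave the position of a library. In 21 DG libraries it lay between 77.2% and 136%, and in 16 CA3 libraries between -6.13% and 7.60%. Synpo+/+ DG ECL replicate 5 was at -3.27%, inside the CA3 range, and Synpo-/- CA3 control replicate 1 was at 21.0%, above every other CA3 library and below each of the 21 DG libraries.

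**Figure D1:**
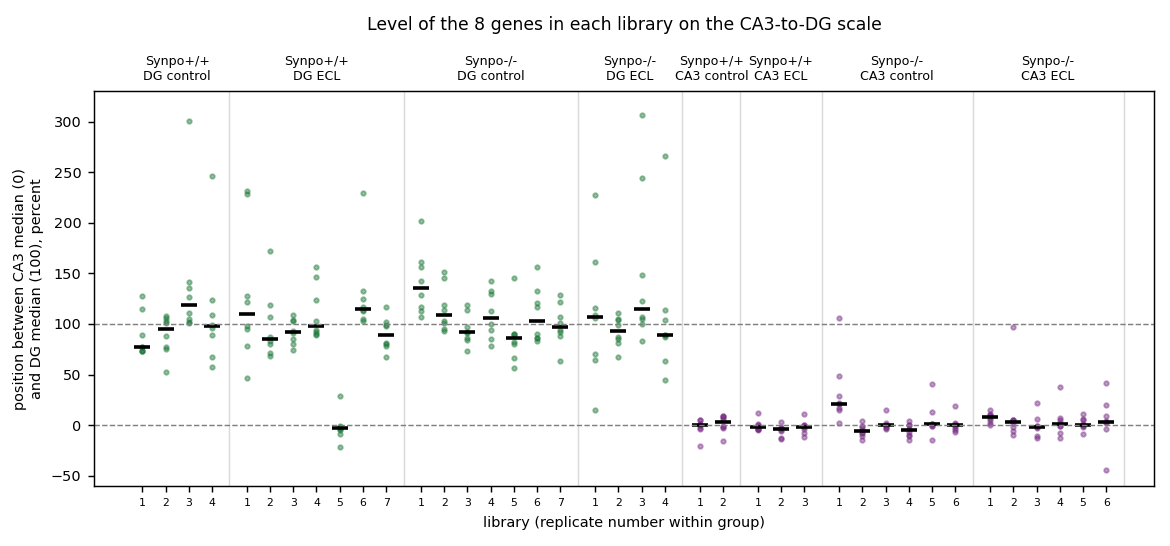
Position of each regional library between the CA3 median (0%) and the DG median (100%), by group and replicate number; small dots are the 8 genes and black bars their median. The 21 other DG libraries have medians from 77.2% to 136%, whereas Synpo+/+ DG ECL replicate 5 lies at -3.27%.

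In Synpo+/+ DG ECL replicate 5, 7 of the 8 genes were within the range of the 17 CA3 libraries, and Plk5 (0.293 CPM) was below it (0.487 to 2.25 CPM). Prox1 was at 15.5 CPM in this library and at 169.8 to 217 CPM in the other 6 lesioned DG libraries, and C1ql2 was at 0.585 CPM against 25.1 to 39.1 CPM. Dsp (0.692 against 15.1 to 23.7 CPM), Calb1 (11.4 against 86.8 to 248 CPM), Rfx3 (47.1 against 171 to 218 CPM), Plk5 (2.43 to 4.63 CPM in the other 6), Pdzd2 (12.7 against 30.7 to 37.3 CPM) and Tdo2 (16.5 against 21.3 to 40.6 CPM) were likewise below the whole range of their group. Its 15 wider granule cell markers summed to 319.8 CPM against 794 to 979.5 CPM, and its 9 CA3 pyramidal markers to 1296 CPM against 420.3 to 536 CPM. Astrocyte and microglia markers, at 7051 and 1694 CPM, were within the range of the lesioned DG group, while pan-neuronal (11742 against 4612 to 6026 CPM) and oligodendrocyte markers (2508 against 803 to 1151 CPM) were above it. It was the deepest regional library, with 46043990 counts.

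Synpo-/- CA3 control replicate 1 differed in the other direction. Prox1 was at 44.0 CPM against 15.6 to 18.7 CPM in the other 5 libraries of its group, Dsp at 9.71 against 0.827 to 2.29 CPM, C1ql2 at 6.27 against 0.561 to 1.53 CPM and Calb1 at 41.4 against 10.2 to 21.3 CPM. Tdo2 (25.8 CPM), Rfx3 (72.7 CPM), Plk5 (1.02 CPM) and Pdzd2 (19.9 CPM) also exceeded the rest of the group. Its CA3 pyramidal marker sum, 1149 CPM, was within the 1016 to 1287 CPM of the other 5 libraries. Most other marker sums were above those of the 5 libraries, among them wider granule cell (468 against 283 to 328 CPM), mossy cell (92.3 against 52.7 to 74.3 CPM), interneuron (1149 against 772 to 1097 CPM), pan-neuronal (11118 against 9267 to 10594 CPM) and microglia markers (1744 against 849 to 1579 CPM).

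Leaving out both libraries, the lowest DG and the highest CA3 library were far apart for most of the genes: 120.2 against 27.5 CPM for Prox1, 17.5 against 3.38 CPM for C1ql2, 86.8 against 31.0 CPM for Calb1, 9.08 against 3.18 CPM for Dsp and 129 against 63.8 CPM for Rfx3. For Pdzd2 the limits were 28.1 and 17.8 CPM, and for Plk5, the least abundant gene, they were 2.43 and 2.25 CPM. Tdo2 overlapped, with a lowest DG library at 14.9 CPM and a highest CA3 library at 24.8 CPM. Thus 7 of 8 genes separated the tissues without the 2 libraries, 6 without the DG library alone and 0 with all 39 libraries. Both libraries had stood apart on these same genes, so the rise follows in part from leaving them out. The share of all genes that separate the tissues was not counted.

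**Figure D2:**
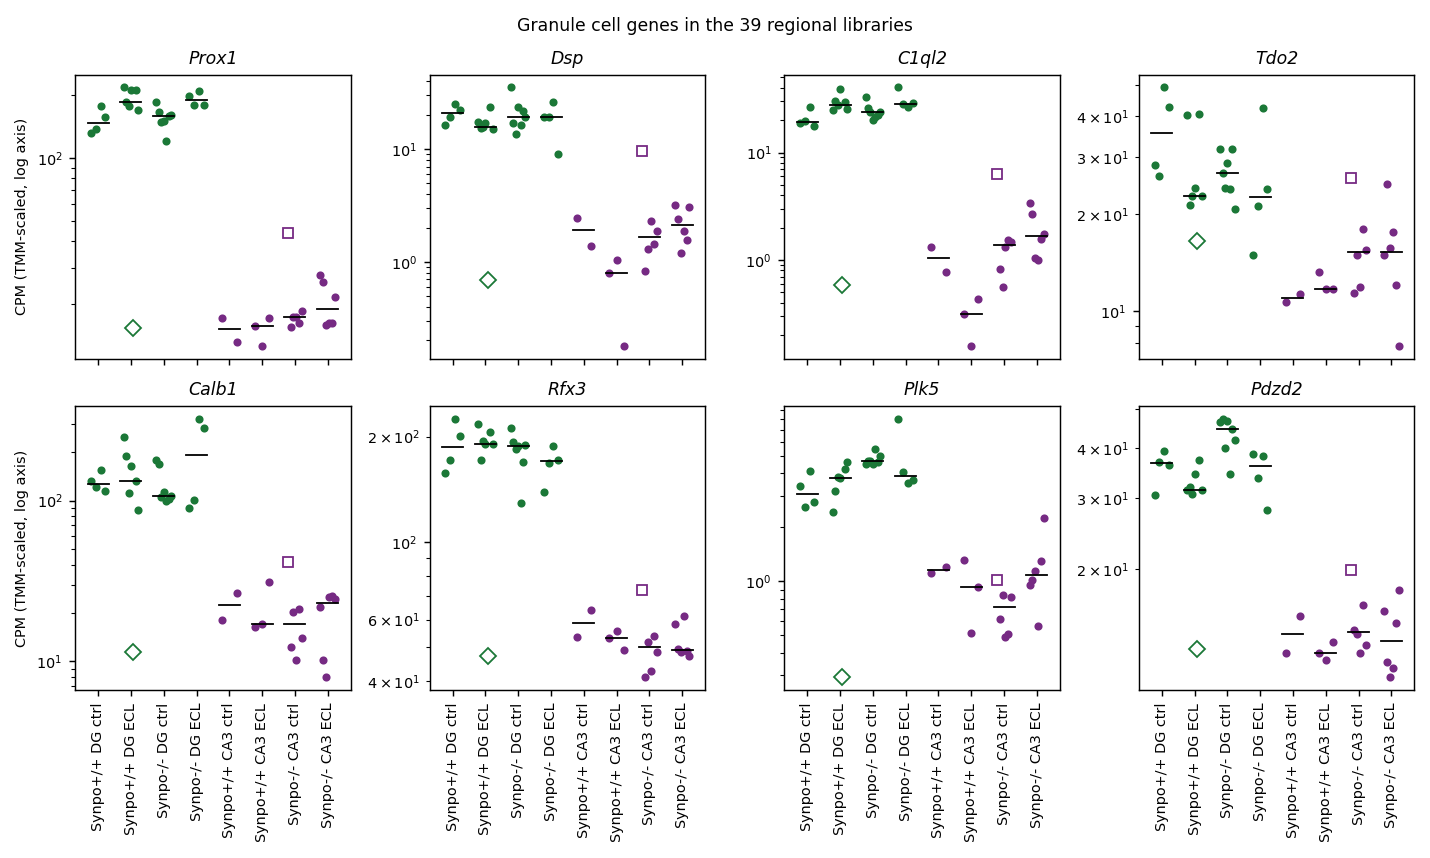
Level of each gene in every regional library (CPM after TMM scaling, log axis) by group, with the group median as a line; green marks DG and purple CA3. The open diamond is Synpo+/+ DG ECL replicate 5 and the open square Synpo-/- CA3 control replicate 1; Prox1 lies at 15.5 and 44.0 CPM in them.

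Per kilobase of exon, Calb1 was the most abundant of the 8 genes in the 21 DG libraries (30.8 ± 13.4 CPM per kb, SD), followed by Prox1 (20.6 ± 3.24), Rfx3 (16.6 ± 2.15), C1ql2 (13.2 ± 2.97) and Tdo2 (7.46 ± 2.32). Dsp (2.02 ± 0.570), Pdzd2 (2.02 ± 0.311) and Plk5 (1.56 ± 0.448) formed a lower tier. Each gene overlapped its neighbour in this order in the range over libraries except at the step from Tdo2, whose lowest library was at 3.84 CPM per kb, to the lower tier, whose highest was at 3.66. Calb1 varied most, from 17.9 to 66.7 CPM per kb. Over all 22 DG libraries the means were 29.5 for Calb1, 19.7 for Prox1, 16.1 for Rfx3, 12.6 for C1ql2 and 7.31 for Tdo2, and Pdzd2 (1.96) stood before Dsp (1.93) and Plk5 (1.49).

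In control Synpo+/+ cultures all 8 genes were higher in the DG than in CA3 (8 of 8 called by the quasi-likelihood test of edgeR (Benjamini-Hochberg adjusted) at an adjusted p under 0.05, where 2.63% of all genes tested were called higher). C1ql2 was at 19.0, 19.6, 26.6 and 17.5 CPM in the 4 DG libraries and at 1.32 and 0.779 CPM in the 2 CA3 libraries, a log2 fold change of 4.32 ± 0.30 (SE). Prox1 was at 131, 137, 177 and 156 CPM against 17.2 and 13.2 CPM (log2 fold change 3.32 ± 0.19). The groups did not overlap for either gene, nor for Dsp, which was at 16.4, 19.2, 25.2 and 22.3 CPM against 2.44 and 1.38 CPM (3.46 ± 0.28). Calb1 (2.57 ± 0.19), Tdo2 (1.75 ± 0.25), Rfx3 (1.70 ± 0.18), Plk5 (1.48 ± 0.35) and Pdzd2 (1.39 ± 0.17) differed less. The call of Plk5 (adjusted p = 0.0209) was lost without CA3 control replicate 1 or 2 or without DG control replicate 1 or 3. The share of all genes without overlap was not counted in any comparison, so lack of overlap here and below describes the values only.

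In Synpo-/- control cultures the 8 genes were again all called higher in the DG (13.1% of genes tested were called higher), with log2 fold changes from 0.83 ± 0.16 for Tdo2 to 3.67 ± 0.36 for C1ql2. Prox1 ranged from 120.2 to 184 CPM (median 158) in 7 DG libraries and from 15.6 to 44.0 CPM (median 17.4) in 6 CA3 libraries (2.95 ± 0.21), without overlap. All 8 were called as well without Synpo-/- CA3 control replicate 1, where 11.3% of genes were called higher. The folds of C1ql2 (4.48 ± 0.20) and Dsp (3.84 ± 0.26, in place of 2.93 ± 0.41) were then over 1.5 times larger, and Prox1 was at 3.29 ± 0.11. That library had been set apart by its high values of these genes, so larger folds follow from leaving it out. In lesioned Synpo-/- cultures 7 of 8 were called (7.37%): C1ql2 (4.04 ± 0.26), Calb1 (3.38 ± 0.39), Prox1 (3.23 ± 0.16) and Dsp (3.05 ± 0.29) differed most. Tdo2 missed the threshold (0.74 ± 0.28, adjusted p = 0.102), with DG libraries at 14.9, 21.2, 42.3 and 23.9 CPM and CA3 libraries from 7.83 to 24.8 CPM, which overlapped; it passed without CA3 ECL replicate 2, the library at 24.8 CPM.

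In lesioned Synpo+/+ cultures the result rested on DG replicate 5. With all 7 DG libraries 7 of 8 genes were called higher in the DG (1.54% of genes tested), Plk5 being the exception (1.87 ± 0.60, adjusted p = 0.108), and the number called fell to 0 when any library other than replicate 5 was left out, by the same test, with all 8 at an unadjusted p under 0.05. DESeq2 called 8 with all libraries (847 of 20161 genes tested were called higher). Without replicate 5 all 8 were called (7.51%). Their SEs then fell from 1.03 to 0.25 for C1ql2 (log2 fold change 6.62) and from 0.60 to 0.14 for Prox1 (3.72), and Dsp (4.79 ± 0.32), Calb1 (2.90 ± 0.29), Plk5 (2.06 ± 0.31), Rfx3 (1.93 ± 0.11), Pdzd2 (1.44 ± 0.11) and Tdo2 (1.28 ± 0.21) followed. C1ql2 was at 0.317, 0.159 and 0.429 CPM in the 3 CA3 libraries, its lowest group. Replicate 5 had been set apart by low values of these genes as well as by its CA3 pyramidal markers. Larger folds and smaller SEs without it therefore follow in part from that choice.

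**Figure D3:**
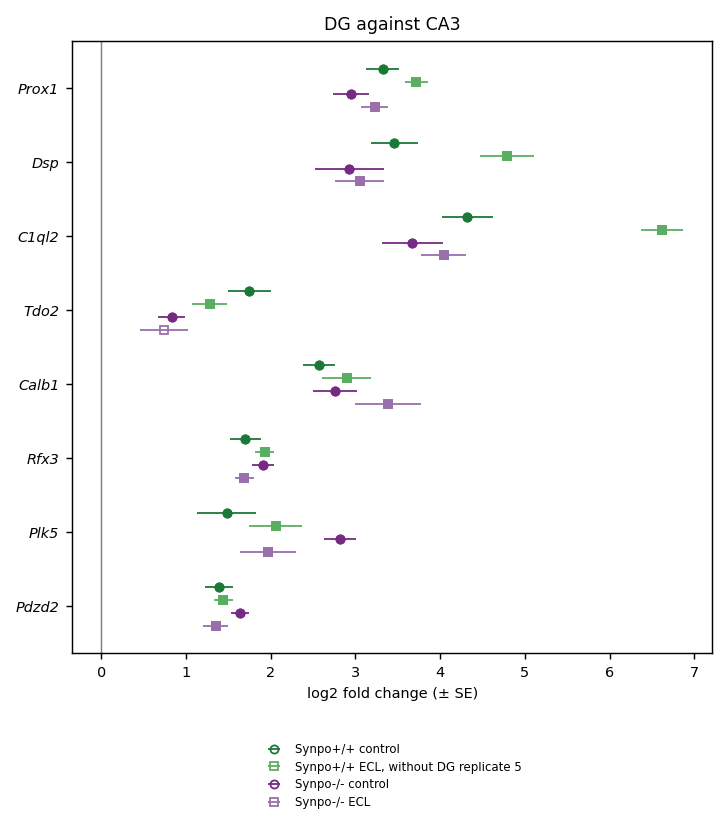
Log2 fold change (± SE) of the DG against CA3 for each gene in the 4 pairs of groups, the lesioned Synpo+/+ pair without DG replicate 5; filled symbols are called (adjusted p under 0.05). All values lie above 0, from 0.74 for Tdo2 in lesioned Synpo-/- cultures, the one open symbol, to 6.62 for C1ql2 in lesioned Synpo+/+ cultures.

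The tissues also differed in other marker lists. Of the 15 wider granule cell genes, 11 were called higher and 1, Il16, lower in the DG of Synpo+/+ controls, with examples Dgkh (2.93), Trpc6 (2.27), Stxbp6 (1.89) and Dock10 (1.70, log2 fold changes), and a median of 1.16 beside 0.02 over all genes tested and 2.16 for the 8 granule cell genes. Of 9 CA3 pyramidal genes 6 were lower in the DG, among them Nectin3 (-1.59) and Spock1 (-1.49), as were 6 of 12 pan-neuronal genes, where 2.75% of all genes tested were called lower. The pan-neuronal sum was 4411 to 5352 CPM in control Synpo+/+ DG and 7900 to 8374 CPM in CA3. Scaling to the pan-neuronal list therefore raised the median of all genes by 0.52 to 0.66 on the log2 scale in the 4 region comparisons. In Synpo+/+ controls 6933 of 25656 genes tested were then called higher in the DG, and in Synpo-/- controls 13643 of 21408. Since this scaling moves genes as a whole up in the DG, the 8 genes staying higher there in each comparison adds no support.

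Within the DG, the lesion left most of the 8 genes without a detected change. In Synpo+/+ cultures 0 of 8 were called with all libraries by the quasi-likelihood test of edgeR (Benjamini-Hochberg adjusted) (12.2% of genes tested were called in either direction), 0 had an unadjusted p under 0.05 and DESeq2 called 0. Without lesioned replicate 5, 2 of 8 were called, both higher (13.8% called in either direction). C1ql2 was at 25.1, 30.0, 27.7, 39.1, 29.6 and 25.2 CPM in the 6 lesioned libraries and at 19.0, 19.6, 26.6 and 17.5 CPM in controls (log2 fold change 0.47 ± 0.14, adjusted p = 0.0323), and replicate 3 of the controls was the one control library within the lesioned range. Prox1 was at 217, 184, 177, 210.3, 212 and 169.8 CPM after ECL against 131, 137, 177 and 156 CPM in controls (0.34 ± 0.11, adjusted p = 0.0441), again overlapping through control replicate 3.

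These calls were near the threshold, and leaving out replicate 5, a library low in these genes, raises the difference by itself. In 7 further settings chosen after seeing the data, all without lesioned replicate 5, the log2 fold change of C1ql2 was 0.26 to 0.53, called in 5 (adjusted p 0.00490 to 0.261), and that of Prox1 was 0.29 to 0.40, called in 2 (adjusted p 0.0171 to 0.196). The other 6 genes were called in 0 of the 7, among them a fit with DESeq2. Dsp (-0.29 ± 0.15), Tdo2 (-0.39 ± 0.21) and Pdzd2 (-0.16 ± 0.10) had values below 0, and Calb1 (0.20 ± 0.21), Plk5 (0.16 ± 0.21) and Rfx3 (0.01 ± 0.11) values above it, none past the threshold by the quasi-likelihood test of edgeR (Benjamini-Hochberg adjusted). Calb1 spread widely after ECL, at 248, 189.7, 112, 164, 132 and 86.8 CPM against 115 to 155 CPM in controls, so that the lesioned libraries lay on both sides of the control range.

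In Synpo-/- DG, 0 of 8 genes were called by the quasi-likelihood test of edgeR (Benjamini-Hochberg adjusted) (8.53% of genes tested in either direction), 4 had an unadjusted p under 0.05 and DESeq2 called 1, Pdzd2. Pdzd2 was at 38.7, 33.7, 38.3 and 28.1 CPM in the 4 lesioned libraries and from 34.4 to 47.3 CPM (median 44.5) in 7 controls (log2 fold change -0.36 ± 0.12, adjusted p = 0.0696), and overlapped with them through control replicate 5, the control at 34.4 CPM. Without that library Pdzd2 was called (-0.41, adjusted p = 0.0242). Prox1 was at 198, 179, 209 and 179.9 CPM against 120.2 to 184 CPM (0.25 ± 0.11, adjusted p = 0.168), and C1ql2 at 40.3, 28.1, 26.7 and 28.9 CPM against 20.2 to 32.6 CPM (0.31 ± 0.14, adjusted p = 0.204). Calb1 formed 2 pairs, at 89.3 and 101 CPM and at 323 and 283 CPM, against 99.7 to 179 CPM in controls (0.62 ± 0.29, adjusted p = 0.227).

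The test of the difference between genotypes in the response to ECL called 0 of the 8 genes, with all libraries and without lesioned Synpo+/+ replicate 5 (edgeR, 0.00381% and 0.00385% of genes tested); 0 had an unadjusted p under 0.05 in either fit, and DESeq2 called 0 with all libraries. Without replicate 5 the interaction was -0.13 ± 0.16 for Prox1, -0.22 ± 0.21 for C1ql2 and -0.25 ± 0.15 for Pdzd2 on the log2 scale.

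**Figure D4:**
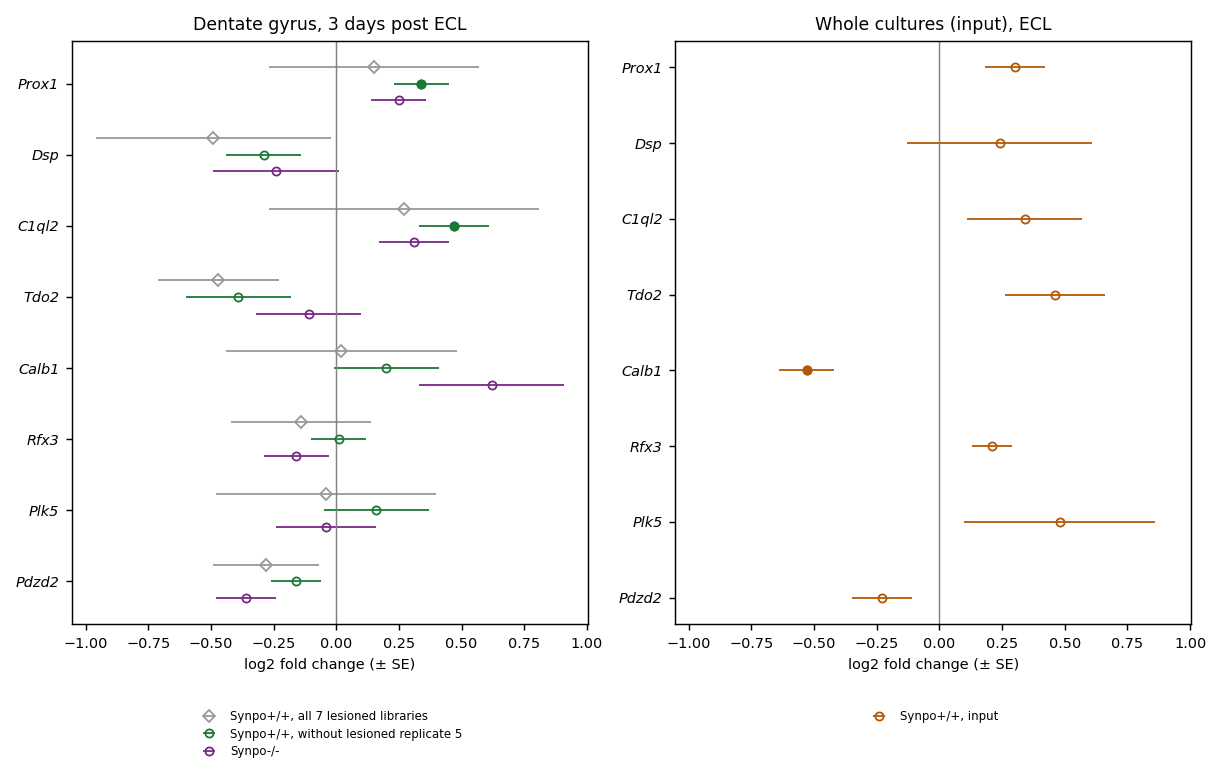
Log2 fold change (± SE) of ECL against control for each gene, in the DG (left; Synpo+/+ with and without lesioned replicate 5, and Synpo-/-) and in whole-culture input of Synpo+/+ (right); filled symbols are called. In the DG only Prox1 (0.34) and C1ql2 (0.47) in Synpo+/+ without replicate 5 are filled, and in the input only Calb1 (-0.53).

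Glial and immediate early markers moved with the lesion in the same DG libraries. In Synpo+/+ without replicate 5, 12 of 12 microglia and 8 of 9 astrocyte markers were called higher, with astrocyte sums of 7050 to 8732 CPM after ECL against 4499 to 5043 CPM in controls, as were 8 of 12 immediate early genes, where 8.46% of all genes tested were called higher. In Synpo-/- DG 10 of 12 microglia, 7 of 9 astrocyte and 10 of 12 immediate early genes were higher, against 5.17% of all genes tested. Among 8 genes of immature granule cells and progenitors, 3 were higher in each genotype, Sox11 and the proliferation genes Mki67 and Top2a (1.31 and 1.53 in Synpo+/+, 1.07 and 0.66 in Synpo-/-, log2 fold changes), and Dcx was lower in Synpo-/- (-0.46). Of the 15 wider granule cell markers 1 was higher in each genotype, Fam163b (0.37) in Synpo+/+ and Sipa1l2 (0.41) in Synpo-/-. Libraries with more Xist than Y-linked reads numbered 4 of 4 in Synpo+/+ DG controls and 4 of 7 after ECL. The part of these differences in the values of the 8 genes was not tested.

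Between genotypes, no difference in the 8 genes passed the threshold in the DG. In control DG 0 of 8 were called between Synpo-/- and Synpo+/+ (edgeR, 0.0166% of genes tested in either direction), with 2 at an unadjusted p under 0.05 and 0 by DESeq2. Plk5 was at 4.48 to 5.50 CPM in 7 Synpo-/- libraries against 3.38, 2.59, 4.11 and 2.76 CPM in Synpo+/+, without overlap (log2 fold change 0.54 ± 0.16, adjusted p = 0.215 by the quasi-likelihood test of edgeR (Benjamini-Hochberg adjusted)). The share of all genes without overlap was not counted, so the lack of overlap in Plk5 adds no support for a difference. Tdo2 was at 20.7 to 31.8 CPM against 28.4, 26.1, 49.1 and 42.6 CPM (-0.48 ± 0.17, adjusted p = 0.233), and Prox1 differed by 0.02 ± 0.12. In lesioned DG 0 of 8 were called (0.0166%), with 0 at an unadjusted p under 0.05 and 0 by DESeq2; without Synpo+/+ replicate 5 the count was 0 as well (0.0375%), with 1 at an unadjusted p under 0.05. These comparisons share their DG libraries with the lesion comparisons.

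In CA3, where the median of each of the 8 genes was lower than in the DG, ECL was followed by no called change. In Synpo+/+ CA3, 0 of 8 were called by edgeR (1.78% of genes tested), with 2 at an unadjusted p under 0.05 and 0 by DESeq2. C1ql2 was at 0.317, 0.159 and 0.429 CPM after ECL and at 1.32 and 0.779 CPM in controls, and Dsp at 0.792, 1.03 and 0.179 CPM against 2.44 and 1.38 CPM, so neither overlapped (log2 fold changes -1.88 ± 0.65 and -1.62 ± 0.64, adjusted p = 0.127 and 0.167 by the quasi-likelihood test of edgeR (Benjamini-Hochberg adjusted)). Groups of so few libraries can readily separate by chance, and the share of all genes without overlap was not counted. The lack of overlap in C1ql2 and Dsp therefore adds no support for a change. Counts of C1ql2 and Dsp in CA3 libraries went as low as 4 and 5 reads. In Synpo-/- CA3 0 of 8 were called (0.0770%), with 1 at an unadjusted p under 0.05 and 0 by DESeq2, and 0 without control replicate 1 (0.0608%, 1 at an unadjusted p under 0.05). Without that library 5 genes changed sign, none called, among them Prox1 (0.27 in place of -0.06), Dsp (0.51 in place of -0.38) and C1ql2 (0.73 in place of -0.07). That library was high in these genes, so leaving it out raises the difference by itself.

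Whole-culture input holds the DG together with the rest of the hippocampus and entorhinal cortex, and each of the 8 genes was lower there than in the 21 DG libraries: Prox1 was at 27.0 to 43.9 CPM over the 12 input libraries, C1ql2 at 1.53 to 4.42 CPM and Rfx3 at 25.1 to 39.2 CPM. The inputs were scaled apart from the regional libraries, so this sets levels side by side without a test. Tdo2 (2.89 to 5.50 CPM) and Rfx3 were also below every CA3 library, whose lowest were at 7.83 and 41.1 CPM. After ECL 1 of 8 genes was called in Synpo+/+ input (5.61% of genes tested in either direction), with DESeq2 also calling 1, the same gene (745 of 17209 genes tested higher and 931 lower). Calb1 was at 32.2, 32.4, 34.7, 35.7 and 39.7 CPM in the 5 lesioned inputs and at 54.1, 59.6, 52.2, 43.7 and 41.1 CPM in controls, so every lesioned library was below every control (log2 fold change -0.53 ± 0.11, adjusted p = 0.0139 by the quasi-likelihood test of edgeR (Benjamini-Hochberg adjusted)).

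Calb1 is made by other neurons besides granule cells, and interneuron markers also differed between these inputs, with sums of 1123 to 1632 CPM (median 1172) after ECL and 1350 to 3600 CPM (median 1518) in controls. Pan-neuronal sums were 8794 to 10183 CPM after ECL against 10122 to 11180 CPM, astrocyte sums 20533 to 30745 against 14641 to 22340 CPM, and Mki67 (1.58) and Top2a (1.87, log2 fold changes) were called higher. The part of these differences in the Calb1 value was not tested. Scaling to the pan-neuronal list moved the median of all genes by 0.27 on the log2 scale. Relative to that list Calb1 was at -0.26 (adjusted p = 0.109, not called), whereas 4 other genes were called higher: Tdo2 (0.74), C1ql2 (0.62), Prox1 (0.58) and Rfx3 (0.48). With that scaling 4816 of all 17951 genes tested were called higher and 251 lower. Under the main scaling the 4 members were at 0.46 ± 0.20, 0.34 ± 0.23, 0.30 ± 0.12 and 0.21 ± 0.08, and none was called. A fit over all 6 input and coIP groups called 0 of 8, with Calb1 at -0.52 (adjusted p = 0.188). It called 309 of 21591 genes tested higher and 347 lower.

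In the Synpo-coIP of control Synpo+/+ cultures 4 of 8 genes differed from input, where 55.0% of all genes tested were called, so the share of the members was near the background. Pdzd2 was at 29.2, 22.1, 25.0, 27.5 and 21.6 CPM in the coIP and at 12.2, 12.8, 16.4, 11.3 and 12.4 CPM in input (log2 fold change 0.96 ± 0.13), without overlap, and Rfx3 at 36.7 to 50.8 CPM against 25.1 to 30.1 CPM (0.59 ± 0.10), also without overlap. Calb1 was at 34.1, 56.9, 26.4, 20.9 and 20.8 CPM against 54.1, 59.6, 52.2, 43.7 and 41.1 CPM (-0.64 ± 0.23), with coIP replicate 2 inside the input range, and Tdo2 at 1.36 to 3.28 CPM against 2.89 to 5.03 CPM (-0.78 ± 0.27). Prox1 was at 21.1 to 35.4 CPM against 27.0 to 38.8 CPM (-0.19 ± 0.14, not called). Pdzd2 and Rfx3 were called without any one library, but Calb1 lost its call without input replicate 2 or 3 or coIP replicate 3, 4 or 5, and Tdo2 without input replicate 2 or coIP replicate 1 or 5.

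In the coIP of lesioned Synpo+/+ cultures 5 of 8 were called (58.3% of genes tested), the same 4 with Pdzd2 at 1.05 ± 0.12, Rfx3 at 0.72 ± 0.09, Tdo2 at -0.77 ± 0.24 and Calb1 at -0.71 ± 0.15, and Dsp at 0.86 ± 0.34. Dsp lost its call without input replicate 1, 3 or 4 or coIP replicate 2 or 5. Since coIP and input of a replicate came from one lysate, the replicate was also fitted as a block. Blocked, 7 of 8 genes were called in controls (62.5% of genes tested), adding Dsp (0.68), C1ql2 (0.58) and Plk5 (0.90), and 6 of 8 after ECL (62.4%), adding Plk5 (0.85).

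The Synpo-/- coIP, which has 2 replicates, called 3 of 8 genes (31.4% of genes tested): C1ql2 at 4.52 and 7.84 CPM against 3.64 and 3.19 CPM in input (0.82 ± 0.29), Pdzd2 at 19.0 and 22.1 CPM against 12.5 and 12.6 CPM (0.68 ± 0.17) and Rfx3 at 49.2 and 51.4 CPM against 30.1 and 39.2 CPM (0.50 ± 0.16). None of the 3 overlapped with input, but they were named because they were called, so with 2 against 2 libraries this adds no support. C1ql2 lost its call without input replicate 1 or 2 or coIP replicate 2, and Rfx3 without input replicate 1 or coIP replicate 2, in fits where a lone library was assumed to vary like the other group. With the replicate block 4 of 8 were called (35.8%), adding Dsp (0.73). The titles of the Synpo-/- inputs carry a preparation number and a replicate number that differ, and the block and the replicates named here use the preparation number, which also stands in the coIP titles. The difference between the Synpo-/- and the control Synpo+/+ coIP enrichment was called for 0 of 8 genes by edgeR (0% of genes tested), with 0 at an unadjusted p under 0.05 and 0 by DESeq2; it was 0.75 ± 0.39 for Calb1 and -0.23 ± 0.22 for Pdzd2 on the log2 scale. That test shares its libraries with the coIP comparisons. Pdzd2 and Rfx3 were above input in the Synpo-/- pull-down too, which the paper used as the background of the antibody. Their values in Synpo+/+ therefore do not by themselves show an association with synaptopodin. The paper's cut for enrichment after that correction was not applied here. Pdzd2 and Rfx3 are the members with the longest exonic sequence (18419 and 11034 bases). With the length trend of each library removed Pdzd2 was at 0.36 in control and 0.41 in lesioned Synpo+/+ and at 0.26 (not called) in Synpo-/-, and Rfx3 at 0.19 (not called), 0.31 and 0.24 (not called).

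**Figure D5:**
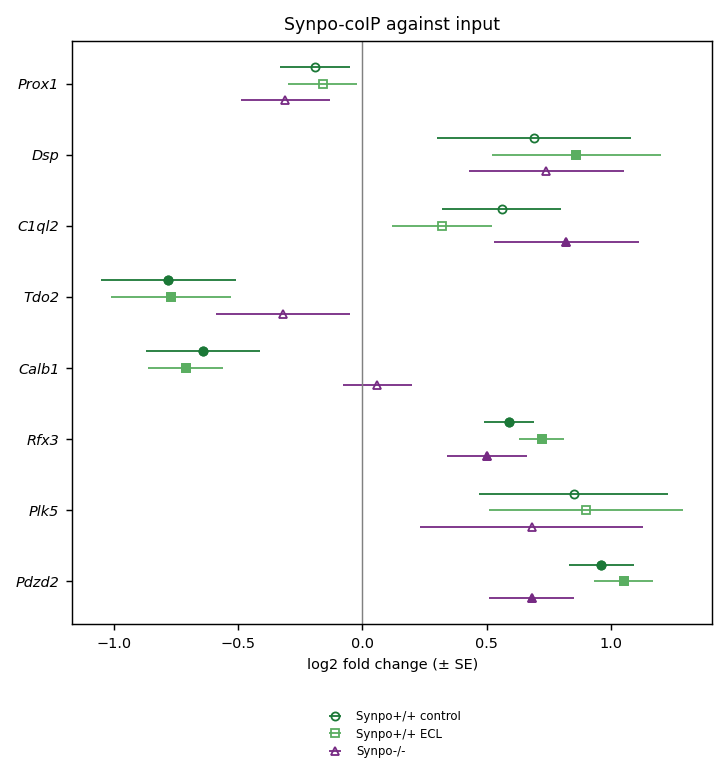
Log2 fold change (± SE) of the Synpo-coIP against input for each gene in Synpo+/+ control, Synpo+/+ ECL and Synpo-/- cultures; filled symbols are called. Pdzd2 and Rfx3 lie above 0 and are filled in the 3 groups, and Tdo2 and Calb1 lie below 0 and are filled in the 2 Synpo+/+ groups.

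Genes whose pattern over the 39 regional libraries was most like the mean pattern of the 8 were found by the root-mean-square difference of centred log2 CPM. Of 17461 genes with a mean of at least 1 CPM, the closest were Sema5a (0.218), Dgkh (0.220), Fat4 (0.315), Trpc6 (0.341) and Kitl (0.353 log2 units), closer than any of the members, of which Prox1 (0.378) came nearest and C1ql2 (1.09) was farthest. The 5 are the smallest of 17461 values and the members were not picked by this measure, so that order follows in part from selection. The measure also counts the size of the step. By Pearson correlation Prox1 (0.992) came before Dgkh (0.987) and Sema5a (0.986), C1ql2 (0.982) before Fat4 (0.972), and Tdo2 (0.800) last. The libraries share tissue and depth, so the likeness describes the DG to CA3 step first. Without Synpo+/+ DG ECL replicate 5 the first 4 were again Sema5a, Dgkh, Fat4 and Trpc6, and Cntn4 (0.350) stood in place of Kitl. Within the 22 DG libraries, centred by group, the closest were Prox1os (0.152), Fat4 (0.162), Dgkh (0.163), Sema5a (0.174) and Bcl11b (0.184), and 0 of these 5 were among the closest 5 without replicate 5, which were Tubgcp2 (0.0884), Btbd3 (0.0973), Lrp1b (0.105), Ppp1r16b (0.114) and Mfap3 (0.114). The SD of the mean pattern within the DG groups was 0.628 with that library and 0.161 without it.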

How the data were processed

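The libraries were sequenced as 100 bp (regional) or 150 bp (coIP and input) paired ends. The authors trimmed reads with cutadapt 3.5, aligned them to mm10 with STAR 2.7.8a and counted them over GENCODE exons with featureCounts 2.0.1 without regard to strand; the 4 Synpo-/- coIP and input samples name the same tools without versions. The deposited values are raw counts per gene symbol. From these, CPM values (counts relative to the effective library size) were computed with TMM scaling, over the regional and the coIP libraries separately. Each comparison was fitted on its own groups with edgeR 4.0.16 (R 4.3.3; filterByExpr, TMM, quasi-likelihood test), with Benjamini-Hochberg adjustment over all genes tested and a call at an adjusted p under 0.05. All 8 genes passed the filter in each of the 16 comparisons. An SE is the absolute log2 fold change divided by the square root of the F statistic. Pipelines were tested on simulated data with 200 genes changed 4-fold, of which 163 to 196 were recovered. Smaller changes, such as those seen after the lesion, were not simulated, and genes with few counts were not among those changed. The recovery therefore does not extend to them. Alternatives were DESeq2 1.42.0, RLE scaling, no filter, a mean normalized count over 300, removal of a gene length trend, pan-neuronal scaling, all groups in one fit, a replicate block and leaving out each library. Regional libraries were not treated as paired, since their same-numbered deviations correlated at -0.224 to 0.540 with some pairs of each comparison under 0.1. The coIP and input of one number share a lysate (0.105 to 0.442 in Synpo+/+, 0.0456 in Synpo-/-). Such correlations cannot show that no regional libraries came from one culture. The rule for named genes was the 8 members, up to 4 called genes of each marker list in listed order, and the 5 genes closest in pattern; Prox1os, Gm10129 and Synpo were named because results turn on them. The members and lists were chosen with earlier results of these data known. RefSeq promoter sequences came from the GRCm38.p6 table; none was matched for Calb1.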

Additional observations from a re-analysis of the deposited data

Results flagged for a closer look

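Of 80 groups of 4 to 10 libraries tested for a single value far from the rest by Dixon's criterion, 14 held one, where chance gives about 1 in 20. The tests are not independent, since the genes share libraries and 1 odd library is counted for several genes. The number flagged therefore cannot be weighed against that rate. Synpo+/+ DG ECL replicate 5 was below its group for Prox1 (15.5 CPM), Dsp (0.692 CPM), C1ql2 (0.585 CPM), Rfx3 (47.1 CPM) and Pdzd2 (12.7 CPM). Synpo-/- CA3 control replicate 1 was above its group for Prox1 (44.0 CPM), Dsp (9.71 CPM), C1ql2 (6.27 CPM) and Calb1 (41.4 CPM). Lesioned Synpo-/- DG replicate 1 was high for C1ql2 (40.3 CPM) and Plk5 (8.06 CPM). Among the whole cultures, Prox1 was low in lesioned Synpo+/+ input replicate 1 (30.1 CPM), Tdo2 was high in control Synpo+/+ input replicate 2 (5.03 CPM) and Calb1 was high in lesioned Synpo+/+ coIP replicate 1 (31.0 CPM).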

How the results depend on the processing

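Of 128 planned recounts of members called, 119 stayed within 1.5 times the main count or on its side, 4 were lower and 5 higher; the cause was not tested unless named. Keeping only the calls of the main fit with a mean normalized count over 300 left 5 for the DG against CA3 in Synpo+/+ controls. It left 3 for the coIP of lesioned Synpo+/+ cultures. For ECL in Synpo+/+ DG the replicate block, which is not known to pair the regional libraries, gave 2 calls (Prox1 and C1ql2). It called 2190 of 23720 genes tested higher and 790 lower. Lesioned replicates 5, 6 and 7 have no control of their number, so each took a term of its own in that fit. Replicate 5 therefore did not enter the lesion contrast, and these are not calls with that library included. Settings without lesioned replicate 5 were chosen after seeing the data. Among them DESeq2 gave 2, no filter 2, RLE 1, neuronal scaling 1, the replicate block 1, and length trend removal and all groups in one fit 0. DESeq2 gave 1 call for ECL in Synpo-/- DG and no filter gave 1 in Synpo+/+ CA3 (1825 of 47901 genes tested higher and 891 lower). In the paired coIP comparison of Synpo+/+ controls the replicate block gave 7, and in Synpo-/- length trend removal gave 1 (3036 of 20892 genes tested higher and 2831 lower). For ECL in input, neuronal scaling gave 4 and all groups in one fit 0. Of the 5 genes closest in pattern within the DG, 0 were kept without replicate 5.

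Leaving out 1 library at a time, the number of members called ranged from 0 to 8 for the DG against CA3 in lesioned Synpo+/+ cultures, from 0 to 2 for ECL in Synpo+/+ DG, from 0 to 1 in Synpo-/- DG, from 2 to 4 and from 1 to 4 for the coIP of Synpo+/+ controls and of Synpo-/-. Values near 0 and not called changed sign, given as log2 fold changes. For ECL in Synpo+/+ DG, Calb1 was at -0.01 (RLE), -0.12 (length trend removed), -0.04 (neuronal scaling) and -0.24 to 0.20 with a library left out, Rfx3 at 0.02 (block) and -0.23 to 0.01, and Plk5 at 0.02 (block) and -0.20 to 0.16. In Synpo-/- DG, Plk5 was at 0.08 (neuronal), 0.01 (all groups) and -0.38 to 0.10, and Tdo2 at -0.45 to 0.08. In Synpo+/+ CA3, Tdo2 was at -0.14 (length), -0.20 (neuronal) and -0.04 to 0.11, Prox1 at -0.25 to 0.13 and Calb1 at -0.52 to 0.19. In Synpo-/- CA3, Prox1 was at 0.01 (block) and -0.16 to 0.27, C1ql2 at 0.20 (block) and -0.30 to 0.73, Calb1 at 0.01 (length), 0.04 (neuronal) and -0.15 to 0.31, Dsp at -0.56 to 0.51, Tdo2 at -0.25 to 0.11 and Rfx3 at -0.04 to 0.14. Between genotypes in control DG, Prox1 was at -0.03 (neuronal) and -0.02 to 0.11, Calb1 at 0.07 (block) and Rfx3 at 0.04 (block) and -0.15 to 0.01. In lesioned DG, Prox1 was at -0.08 (block) and -0.05 to 0.22, C1ql2 at -0.02 and Calb1 at -0.06 (block), and Tdo2 at -0.46 to 0.09. For the interaction in the DG, the block gave -0.25 for Prox1, -0.04 for Dsp, -0.40 for C1ql2 and -0.10 for Calb1, Rfx3 was at 0.06 (length), 0.12 (neuronal), 0.01 (all groups) and -0.22 to 0.05, Plk5 at 0.01 (RLE), 0.14 (length), 0.17 (neuronal), 0.03 (all groups) and -0.37 to 0.15, and Pdzd2 at 0.09 (neuronal). With a library left out Prox1 was at -0.13 to 0.19, C1ql2 at -0.22 to 0.17 and Tdo2 at -0.02 to 0.51. In the Synpo-/- coIP, Prox1 was at -0.57 to 0.01 and Calb1 at -0.02 to 0.17. For genotype by fraction, Dsp was at -0.08 (neuronal) and -0.30 to 0.53, Rfx3 at 0.05 (length) and -0.21 to 0.17, Prox1 at -0.33 to 0.24, C1ql2 at -0.14 to 0.66 and Plk5 at -0.49 to 0.34. For ECL in input Pdzd2 was at 0.04 (neuronal). The DG against CA3 direction of the 8 genes reversed in 0 of the settings run. Neuronal scaling, which moves genes as a whole up in the DG, could not have reversed it. Counts as low as 4 reads for C1ql2, 5 for Dsp and 9 for Plk5 in some CA3 libraries limit their precision.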
